A study of Mus musculus with 7 samples.

Results

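The 8 genes described here are the heat-shock chaperone genes Hspa1a, Hspa1b, Dnajb1, Hspb1, Hsph1, Hsp90aa1, Hspa8 and Hspe1, out of 33864 genes listed in all. All 8 genes have a row in each of the 3 tables, and all 8 passed the filter on low counts in every cell class tested. The 8 genes were chosen by measured values of these data, since Hspa1a, Hspa1b and Dnajb1 were among the leading genes of clusters of immune cells of WT and i4F mice, and the others are chaperones of the same response. For that reason the values in B, NK and T cells are a description without a test, and gene-wise tests are given for acinar, ductal, stellate and endothelial cells.

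Single cells of the pancreas of 7 C57BL/6 mice aged 2 months were profiled with the 10x Genomics 3′ assay, in which each captured mRNA molecule carries a unique molecular identifier (UMI). The 2 WT mice and the 3 i4F mice drank doxycycline at 1 mg/ml for 7 days, and the 2 caerulein mice, also of wild-type genotype, received 7 hourly injections of caerulein at 100 µg/kg on each of 2 days and were killed on day 4 after the first injection. The i4F mice (genotype i4F-B) carry the 4 reprogramming factors (Klf4, c-Myc, Oct4 and Sox2) under a promoter that doxycycline switches on, inserted in Pparg and heterozygous, together with the transactivator rtTA expressed ubiquitously from the Rosa26 locus. Caerulein is a secretagogue that causes a mild acute pancreatitis. The labels give doxycycline for the WT mice but not for the caerulein mice. In caerulein against WT, any effects of caerulein, of the injections and of doxycycline therefore cannot be told apart. Each mouse gave 1 library, and library names form 2 series, AL (WT 1 and i4F 1 to 3) and AM (WT 2 and caerulein 1 and 2), so that no series holds both i4F and caerulein mice, which are set side by side without a test.

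Heat-shock chaperones bind unfolded or newly made proteins and help them fold. Cells keep a constitutive set, such as Hspa8, and make an inducible set, such as Hspa1a and Hspa1b, within minutes to hours of heat or other stress, when the transcription factor Hsf1 binds heat-shock elements in the promoters. Co-chaperones of the Hsp40 class (Dnajb1) and of the Hsp110 class (Hsph1) drive the ATP cycle of Hsp70 proteins, Hsp90aa1 encodes the inducible Hsp90, Hspb1 a small chaperone that holds unfolded proteins and binds actin, and Hspe1 the lid of the mitochondrial chaperonin. Warm enzymatic dissociation of a tissue is also known to raise transcripts of this response and of immediate early genes, and all 7 pancreata were digested enzymatically with warming.

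The upstream sequences are shown because Hsf1 is known to act through heat-shock elements near the start site. RefSeq promoters of GRCm38.p6 were matched for 6 of the 8 genes. The 150 bases upstream of the RefSeq start site are printed 5′ to 3′ in the direction of the gene, for the near-identical pair Hspa1a and Hspa1b and for Hspb1 and Hspe1, whose levels behaved differently from that pair in the libraries. Capitals mark matches to a heat-shock element of 2 units, GAANNTTC or TTCNNGAA, where N is any base. The pattern reads the same on both strands.
Hspa1a, chr17:34972157-34972306, minus strand: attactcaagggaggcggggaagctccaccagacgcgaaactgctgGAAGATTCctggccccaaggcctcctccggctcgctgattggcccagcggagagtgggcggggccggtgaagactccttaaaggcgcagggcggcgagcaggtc
Hspa1b, chr17:34959239-34959388, minus strand: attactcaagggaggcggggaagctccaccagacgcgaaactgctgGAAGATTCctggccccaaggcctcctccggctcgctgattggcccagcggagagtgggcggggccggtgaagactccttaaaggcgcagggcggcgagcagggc
Hspb1, chr5:135887769-135887918, plus strand: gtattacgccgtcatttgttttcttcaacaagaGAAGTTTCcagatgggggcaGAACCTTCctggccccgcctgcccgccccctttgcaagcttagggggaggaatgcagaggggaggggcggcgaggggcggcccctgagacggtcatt
Hspe1, chr1:55087998-55088147, plus strand: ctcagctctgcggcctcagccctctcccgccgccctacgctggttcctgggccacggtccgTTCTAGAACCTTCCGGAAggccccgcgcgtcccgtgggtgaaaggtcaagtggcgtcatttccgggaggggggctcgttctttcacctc
Hspa1a and Hspa1b are identical at 149 of these 150 positions (99.3%) and hold their single match at the same place, starting 104 bases upstream of the start site. Hspb1 has 2 separate matches. Hspe1 has 3 overlapping ones, which hold 2 overlapping matches to the longer element of 3 units, GAANNTTCNNGAA or TTCNNGAANNTTC. An element of 2 units occurs in 15.1% of the 32851 RefSeq promoters (250 bases before to 50 after a start site), and one of 3 units in 0.603%. Hsph1 also holds an element of 3 units, just downstream of its start site, and neither of the 2 Dnajb1 promoters in the table has a match. A match describes these letters only.

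In GRCm38, Hspa1a lies on chromosome 17 from 34969190 to 34972156 and Hspa1b on the same strand from 34956436 to 34959238. Of the 2918 windows of 50 bases in the longest annotated Hspa1a transcript, 1716 (58.8%) also occur in Hspa1b, but none of the 451 windows in the last 500 bases does. The assay reads the 3′ end, where the copies differ, but reads further upstream could belong to either copy, and the split between them is uncertain. The other genes lie on chromosomes 8 (Dnajb1), 5 (Hspb1 and Hsph1), 12 (Hsp90aa1), 9 (Hspa8) and 1 (Hspe1).

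The libraries held 4327 to 15138 cells and 15469018 to 64784216 UMIs, with medians of 1248 to 4247 UMIs per cell. The 8 chaperones took 0.327% to 0.677% of all UMIs, which is 60572 to 222754 molecules per library. The transactivator rtTA had 722 to 2571 UMIs in the 3 i4F libraries and 1 to 16 in the other 4, but Pou5f1 (Oct4) had 2.54 and 8.34 CPM in i4F 1 and 2 (154 and 315 UMIs) against 0.194 CPM in the library labelled i4F 3 (3 UMIs), and 0.145 to 1.87 CPM in the other 4 (3 to 32 UMIs). The counts of tests passed, the counts of CPM orders, the within-series means and the list calls of stellate cells are therefore given with and without the library labelled i4F 3. Pairs of libraries shared 3 to 39 cell barcodes, at most 0.411% of the smaller one. The acinar, ductal, stellate and endothelial classes, which are the authors' clusters of those names, were checked against marker lists: of the markers with a row, all were higher inside than outside the class in every library, except 1 of 11 stellate markers in the i4F and caerulein libraries. The check does not show whether a class also holds other cells. Of the 30 acinar markers 11 have a row, and the other 19 were not analysed here. The caerulein cluster named B_lymphocytes went against its name, with 285 and 326 UMIs per 1000000 UMIs (CPM) summed over 7 B cell markers against 5661 to 8489 CPM in the WT and i4F B cell clusters, and 4900 and 4417 CPM over 8 macrophage markers, and it is left out of the account of B cells.

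Hspa1a and Hspa1b, the inducible Hsp70 genes, differed several-fold between mice of one condition. Over all cells, Hspa1a stood at 743 CPM in WT 1 and 1685 CPM in WT 2, at 244, 229 and 1258 CPM in i4F 1 to 3, and at 133 and 629 CPM in caerulein 1 and 2. The level in i4F 3 fell between those of the WT mice, whereas i4F 1, i4F 2 and both caerulein mice were below both WT mice. Hspa1b followed the same order at lower counts, with 52.6 and 115 CPM in WT, 25.1, 20.5 and 109 CPM in i4F, and 10.8 and 39.7 CPM in caerulein mice. In bulk sums of this kind, fewer cells expressing a gene and less RNA per cell cannot be told apart, and the cell types differ in share between the libraries, so the classes were taken one by one.

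Within stellate cells, the fibroblast-like cells that make the matrix of the pancreas, Hspa1a was 881 and 1671 CPM in WT, 234, 208 and 749 CPM in i4F and 109 and 568 CPM in caerulein mice. All i4F and caerulein libraries lay below both WT libraries. In endothelial cells the values were 1003 and 3385 CPM in WT, 640, 329 and 1000 CPM in i4F, and 484 and 2089 CPM in caerulein mice. Here the caerulein mice overlapped the WT mice, and i4F 3 was just under WT 1. Of the endothelial cells of WT 1 38.5%, and of WT 2 70.2%, were in the cluster Endothelial_1. There Hspa1a had 1143 and 3609 CPM, against 358 and 991 CPM in Endothelial_2. The i4F and caerulein mice have a single Endothelial cluster. In the class, 5 lymphatic endothelial markers summed to 92.1 and 86.1 CPM in WT. They had 1475, 700 and 2087 CPM in i4F and 1039 and 854 CPM in caerulein mice. The WT cluster Lymph_nodes, with 385 and 534 CPM of Hspa1a, is not in the class. Macrophage markers had 23.9 and 29.65 CPM in WT, 488, 371 and 129 CPM in i4F and 3798 and 2095 CPM in caerulein mice. Their part in these levels was not tested. In ductal cells Hspa1a had 539 and 1105, then 403, 282 and 700, then 223 and 838 CPM. Acinar cells, which make the digestive enzymes, had 132 and 165, then 123, 108 and 177, then 71.1 and 247 CPM. Both classes overlapped between conditions. Acinar cells had the lowest Hspa1a level of the 4 classes in each of the 7 libraries.

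**Figure D1:**
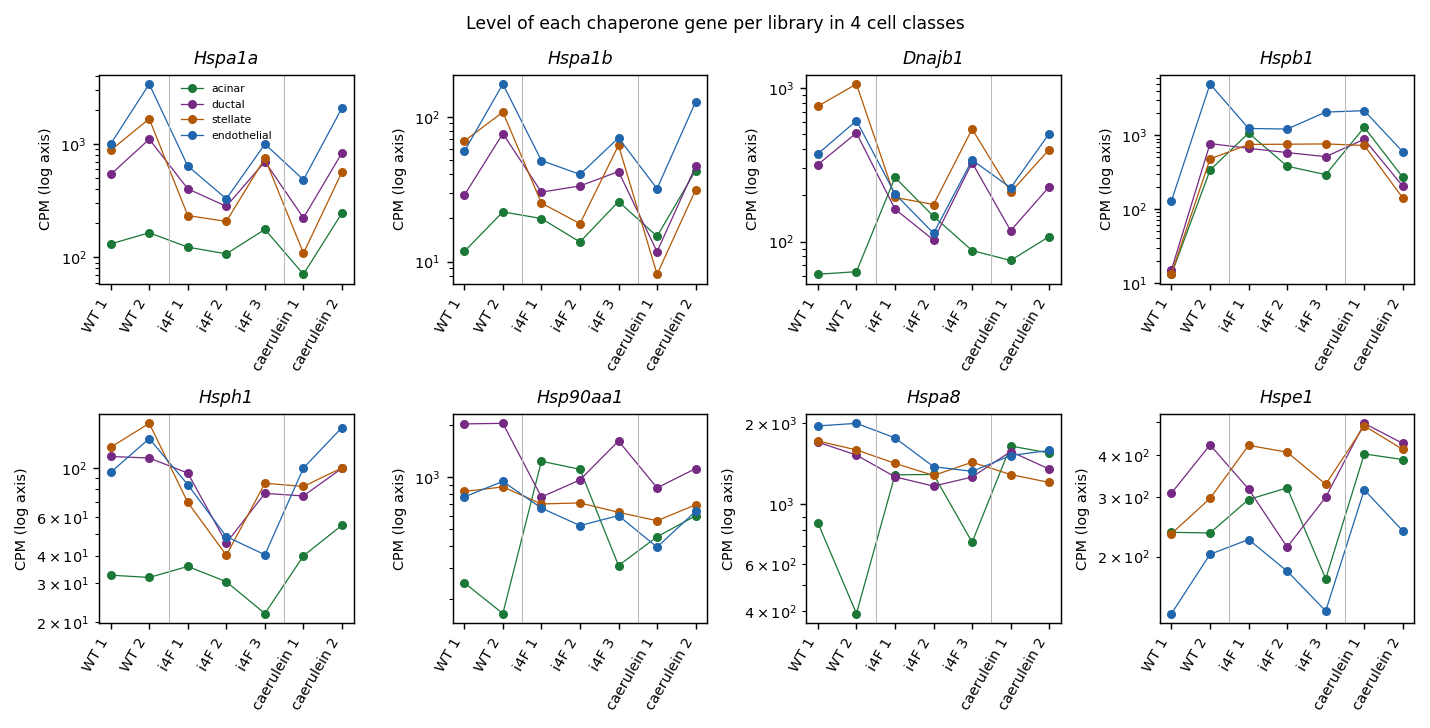
Level of each of the 8 chaperone genes (CPM, log axis) in the 7 libraries, one point per library and cell class, with grey lines between the WT, i4F and caerulein mice. Hspa1a and Hspa1b move largely alike over the libraries. In ductal and acinar cells, however, i4F 1 and 2 are below WT 1 for Hspa1a and above it for Hspa1b. Hspa8 and Hspe1 span a narrower range outside acinar cells, and Hspb1 is at 13.0 to 129 CPM in WT 1 but at 336 to 4934 CPM in WT 2.

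The order of mice within a condition recurred across most clusters, though less so between i4F 1 and i4F 2. Among clusters with at least 20 cells in both libraries, Hspa1a was higher in caerulein 2 than in caerulein 1 in 11 of 11 clusters, with a median difference of 2.06 on the scale log2(CPM + 1). It was higher in WT 2 than in WT 1 in 14 of 15 clusters (median 0.47), the exception being the cluster Quiescent_Pancreatic_Stellate_2, with 434 against 800 CPM. i4F 3 was above i4F 1 in 11 of 12 clusters (median 1.17) and above i4F 2 in 12 of 13 (median 1.31). The exceptions were Activated_Pancreatic_Stellate_2, where i4F 1 had 1110 CPM and i4F 3 901 CPM, and Acinar_1, where i4F 2 and i4F 3 had 171 and 170 CPM. Between the other i4F mice, i4F 1 was above i4F 2 in only 9 of 13 clusters (median 0.51). Clusters of one library share its preparation and are not replicates, and these counts describe 7 libraries.

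The stellate class was made up of different clusters in the 3 conditions. The i4F and caerulein mice also have a smooth muscle cluster outside this class, and the WT mice have no cluster of that name. Whether WT stellate clusters hold such cells was not tested. Of the WT stellate cells, 72.8% and 76.2% were in Quiescent_Pancreatic_Stellate_1, all caerulein stellate cells were in Activated_Pancreatic_Stellate_1, and so were 96.7% and 95.3% of those of i4F 1 and 2 but only 8.83% of those of i4F 3, of which 91.2% were in Activated_Pancreatic_Stellate_2. Hspa1a differed between these clusters inside one library, with 218 CPM in Activated_Pancreatic_Stellate_1 and 1110 CPM in Activated_Pancreatic_Stellate_2 of i4F 1, and 199 against 595 CPM in i4F 2. In i4F 3 the same clusters had 293 and 901 CPM. Within Activated_Pancreatic_Stellate_2, i4F 3 lay between the other i4F mice, and its stellate cells came mostly from that cluster.

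Dnajb1, the Hsp40 partner of inducible Hsp70, had 461 and 744 CPM over all cells in WT, 180, 151 and 441 CPM in i4F, and 140 and 254 CPM in caerulein mice, so that all i4F and caerulein mice were below both WT mice. In stellate cells it had 761.8 and 1061 CPM in WT, 194, 174 and 540 CPM in i4F and 210 and 397 CPM in caerulein mice, again without overlap. But the WT cluster Activated_Pancreatic_Stellate, 10.0% and 6.42% of the WT stellate cells, had 158 and 359 CPM of Dnajb1 and overlapped them. Quiescent_Pancreatic_Stellate_1 had 770 and 1295 CPM. Hspa1a had 1518 and 2661 CPM in the activated WT cluster, above the i4F and caerulein stellate cells. The part of the cluster make-up in these values was not tested. By CPM, acinar cells went the other way. They had 61.3 and 63.6 CPM in WT, 262, 146 and 87.3 CPM in i4F and 75.3 and 108 CPM in caerulein mice. The share of acinar cells with a Dnajb1 UMI, with each cell thinned to the same number of UMIs and shallower cells left out, overlapped. It was 3.05% and 3.25% in WT, 4.90%, 2.73% and 3.40% in i4F and 3.27% and 2.99% in caerulein mice. Hsph1, the Hsp110 that exchanges nucleotide on Hsp70, had 124 and 159 CPM in WT stellate cells, 69.7, 40.1 and 85.1 CPM in i4F and 82.3 and 100 CPM in caerulein stellate cells. The WT cluster Activated_Pancreatic_Stellate had 91.7 and 64.4 CPM of Hsph1. In acinar cells it stayed between 21.8 and 54.9 CPM in all 7 libraries.

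Hsp90aa1, the inducible Hsp90, reached its highest level of the 4 classes in ductal cells of WT mice, at 2021 and 2036 CPM. Its ductal level was 768, 962 and 1612 CPM in i4F and 867 and 1118 CPM in caerulein mice, all below WT. In acinar cells it stood at 246 and 164 CPM in WT and at 1232, 1108 and 309 CPM in i4F mice. Caerulein mice had 453 and 598 CPM there, and all these mice were above WT. After thinning, 12.5% and 5.64% of WT acinar cells had a Hsp90aa1 UMI. The shares were 24.95%, 16.5% and 8.35% in i4F mice, with i4F 3 between the WT mice. In caerulein mice they were 15.6% and 21.7%. Hspa8, the constitutive Hsc70, had 1721 and 1594 CPM in WT stellate cells, 1420, 1280 and 1434 CPM in i4F and 1290 and 1206 CPM in caerulein stellate cells. In acinar cells it was 852 and 391.5 CPM in WT, 1287, 1291 and 722 CPM in i4F and 1648 and 1552 CPM in caerulein mice.

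The composition of the acinar class changed alongside. The i4F 3 acinar cells were to 97.2% in the cluster Acinar_1, those of i4F 1 and 2 to 98.1% and 92.4% in Acinar_2. The 11 acinar markers with a row summed to 68941 and 84984 CPM in WT acinar cells and 38182 CPM in i4F 3, but to 3040 and 7856 CPM in i4F 1 and 2 and 4479 and 3370 CPM in caerulein mice. The 13 ductal markers summed to 8861 and 6793 CPM in WT, 24316, 14573 and 7828 CPM in i4F and 56051 and 61288 CPM in caerulein acinar cells. Their part in the acinar levels of Dnajb1, Hsp90aa1 and Hspa8 was not tested.

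Hspe1, which caps the mitochondrial chaperonin, was the only one of the 8 genes whose level over all cells was higher in every i4F and caerulein mouse than in both WT mice, at 256 and 323 CPM in WT, 370, 332 and 341 CPM in i4F and 426 and 374 CPM in caerulein mice. In stellate cells it had 234 and 298 CPM in WT, 427, 408 and 328 CPM in i4F and 488 and 416 CPM in caerulein mice. In endothelial cells the i4F mice, at 225, 181 and 138 CPM, overlapped the WT mice at 136 and 203 CPM, and the caerulein mice, at 315 and 238 CPM, did not. Ductal cells had 308 and 429 CPM of Hspe1 in WT, 317, 213 and 300 CPM in i4F and 497 and 433 CPM in caerulein mice. Acinar cells had 236 and 235, then 295, 320 and 172, then 403 and 388 CPM. In both classes the i4F mice overlapped the WT mice, and the caerulein mice lay above them.

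Hspb1 followed neither pattern. Over all cells it had 29.3 CPM in WT 1 against 1108 CPM in WT 2, and 129 CPM in caerulein 2 against 632 CPM in caerulein 1, while the i4F mice had 644, 551 and 527 CPM. It was lower in WT 1 than in WT 2 in 15 of 15 clusters and lower in caerulein 2 than in caerulein 1 in 11 of 11. In endothelial cells the values were 129 and 4934 CPM in WT, 1234, 1211 and 2057 CPM in i4F, and 2147 and 594 CPM in caerulein mice. In stellate cells all i4F mice, at 749.7, 753.9 and 761.4 CPM, were above both WT mice, at 13.3 and 476.5 CPM, while caerulein mice had 725 and 140.2 CPM. The i4F and WT mice overlapped in the other 3 classes. The stellate log2 fold change of i4F against WT was 1.71 ± 1.30 (edgeR, adjusted p = 0.348) and became 6.07 ± 1.22 (adjusted p = 0.0743) with the library series as a term, which sets the i4F mice against WT 1 alone. With that term the other classes had 3.70 to 5.50, and none passed the threshold. The processed pseudogene row Hsp25-ps1 moved with it, with 7 UMIs in WT 1 and 475 in WT 2. Other genes shared the gap: of 6031 genes with a mean of at least 20 CPM over the libraries, 47 (0.779%), of which Hspb1 is 1, were at least 4-fold lower in WT 1 than in WT 2 and at least 2-fold lower in caerulein 2 than in caerulein 1, and 5 showed the mirror image. Among them Scand1 had 0.476 CPM in WT 1 and 131 CPM in WT 2, and H2afj 4.82 and 207 CPM. These genes, and the thresholds, were chosen after the values of Hspb1 were seen. A comparison of Hspb1 with the WT mice therefore rests on a 37.9-fold gap between 2 mice of one group.

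Neither i4F nor caerulein mice differed from WT mice in any of the 8 genes in any of the 4 classes at an adjusted p of 0.05 (edgeR quasi-likelihood test on UMIs summed per library, all 7 libraries in one fit, Benjamini-Hochberg adjustment over all genes of the class). This is 0 of 32 tests of i4F against WT and 0 of 32 of caerulein against WT, with 8 and 6 at an unadjusted p under 0.05, beside 27.0% and 29.4% of all genes tested, and with 2 and 2 past the adjusted threshold in DESeq2, beside 10.1% and 10.98% of all genes. These counts of members are thus no larger than those shares of 32 tests would give. Of all genes tested, 0.0808% passed in acinar, 0.00861% in ductal, 20.6% in stellate and 0.81% in endothelial cells for i4F, and 0.0359%, 3.54%, 17.1% and 4.11% for caerulein. The labels name separate mice. With 1 library per mouse, p-values measure the spread between libraries, estimated over all 7, in which mouse and preparation cannot be told apart. The 2 WT libraries also differ in series.

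For i4F against WT, the 8 tests with an unadjusted p under 0.05, and Hspa1a in stellate cells, had the following fitted values. In stellate cells Hspa1a was lower by a log2 fold change of -1.54 ± 0.80 (SE, adjusted p = 0.188), Dnajb1 had -1.43 ± 0.55 (adjusted p = 0.0965), Hsph1 -0.97 ± 0.34 (adjusted p = 0.0791) and Hspe1 0.69 ± 0.24 (adjusted p = 0.0806). In endothelial cells Hspa1a had -1.68 ± 0.69 (adjusted p = 0.25) and Hsph1 -0.97 ± 0.34 (adjusted p = 0.194). In acinar cells Dnajb1 had 1.19 ± 0.39 (adjusted p = 0.134) and Hsp90aa1 1.85 ± 0.48 (adjusted p = 0.108), and in ductal cells Hsp90aa1 had -0.71 ± 0.31 (adjusted p = 0.285). None of these differences passed the threshold of the edgeR test. Dnajb1 in endothelial cells had -1.08 ± 0.49 (adjusted p = 0.28). Single libraries or the series term moved several of these folds. For Hspa1a, in endothelial cells it was -0.50 without WT 2, -2.34 without WT 1 and -0.45 with the library series as a term, and in stellate cells -0.86 without WT 2, -2.42 without i4F 3 and -0.89 with the series term. With the series term Dnajb1 and Hsph1 in endothelial cells had -0.60 and -0.62, and without WT 1 Hspe1 in stellate cells had 0.45.

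For caerulein against WT, Hspe1 in stellate cells came closest to the threshold, at a log2 fold change of 0.92 ± 0.27 (edgeR, adjusted p = 0.0553). Other members with an unadjusted p under 0.05 were Hspa1b and Dnajb1 in stellate cells, at -2.08 ± 0.78 (adjusted p = 0.0993) and -1.47 ± 0.62 (adjusted p = 0.128), and Hsp90aa1 in ductal cells, at -0.87 ± 0.34 (adjusted p = 0.134). In endothelial cells Hsp90aa1 had -0.67 ± 0.29 (adjusted p = 0.236) and Hspe1 0.81 ± 0.34 (adjusted p = 0.229), which was 0.50 with the series term, 0.48 without WT 1 and 0.46 without caerulein 1. Hspa1a in stellate cells had -1.83 ± 0.91 (adjusted p = 0.179), and -1.10 without caerulein 1, -1.18 without WT 2 and -3.34 without caerulein 2. Without caerulein 2, Hspa1b in stellate cells had -3.21.

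**Figure D2:**
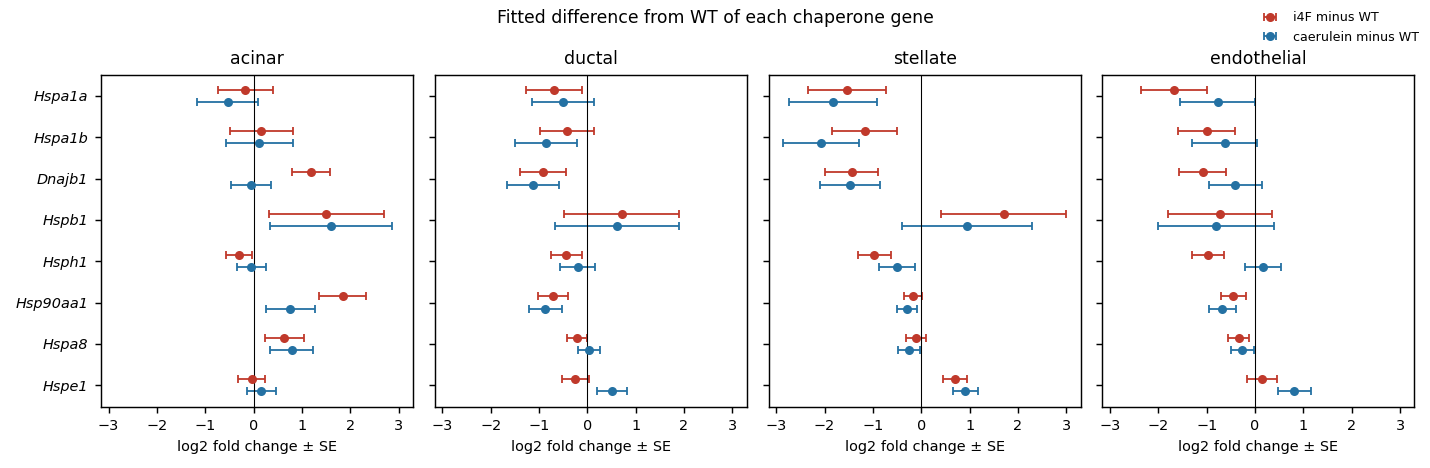
Fitted log2 fold change (± SE) of each gene in i4F and in caerulein mice against WT in the 4 cell classes (edgeR, 2 WT, 3 i4F and 2 caerulein libraries). No gene passed the adjusted threshold. The widest bars are those of Hspb1, and the lowest values are those of Hspa1b and Hspa1a in caerulein stellate cells and of Hspa1a in i4F endothelial cells.

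In acinar cells the scaling mattered: without TMM the median log2 fold change of all genes moved from 0.10 to 0.68 for caerulein and from 0.14 to 0.32 for i4F. Dnajb1 and Hsph1 of caerulein acinar cells, above WT by CPM, had fitted log2 fold changes of -0.05 ± 0.41 and -0.04 ± 0.30.

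Counted without a model, the CPM of all 3 i4F libraries lay below both WT libraries in 14 of the 32 pairs of gene and class and above them in 4, where 26% and 16.8% of all genes tested did so. With i4F 1 and 2 alone the counts were 18 below and 7 above, beside 35.5% and 34.0% of all genes. All caerulein libraries were below WT in 11 pairs and above in 8, beside a background of 33.8% and 33.9%. Within the AL series, the mean Hspa1a of the 3 i4F mice differed from WT 1 by -1.15 (log2 ratio) in stellate and -0.61 in endothelial cells, but by -0.22 in ductal and 0.045 in acinar cells, where 2 of the 3 i4F mice were below WT 1. For i4F 1 and 2 alone the stellate and endothelial values were -1.995 and -1.05, and the ductal and acinar ones -0.65 and -0.19. Within the AM series, the mean of the 2 caerulein mice differed from WT 2 by -2.30 in stellate, -1.40 in endothelial, -1.06 in ductal and -0.054 in acinar cells. With the series as a term in the fit, 0 of 32 tests passed in either comparison, beside 0.144% and 0.254% of all genes, so that this count says nothing about the members.

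The number of members that passed depended on the library labelled i4F 3. Without it, 10 of 32 tests of i4F against WT passed in the same edgeR fit, 2 of 8 in acinar, 2 in ductal, 5 in stellate and 1 in endothelial cells, and the background rose to 32.7%, 26.5%, 47.8% and 14.3% of all genes. The members' share was 25.0% in acinar, 25.0% in ductal, 62.5% in stellate and 12.5% in endothelial cells. It was above that of all genes in stellate cells and below it in the others. With 8 genes per class, 1 gene more or less shifts the share widely, and these differences were not tested. In that fit Dnajb1 was lower in stellate cells (log2 fold change -2.19 ± 0.32, edgeR adjusted p = 0.0021), ductal (-1.44 ± 0.38, adjusted p = 0.027) and endothelial cells (-1.63 ± 0.43, adjusted p = 0.0415) and higher in acinar cells (1.35 ± 0.33, adjusted p = 0.0117). Hspa1a, Hspa1b and Hsph1 were lower and Hspe1 higher in stellate cells. Hsp90aa1 was higher in acinar cells (2.15 ± 0.27, adjusted p = 0.000375) and lower in ductal cells (-1.04 ± 0.20, adjusted p = 0.0073). The share of thinned acinar cells with a Dnajb1 UMI was 4.90% in i4F 1 and 2.73% in i4F 2. These lay above and below the WT mice, at 3.05% and 3.25%.

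At the level of single cells, the share with a Hspa1a UMI was taken after each cell had been thinned to 500 UMIs, and WT 2, caerulein 2 and i4F 3 were again above the other mice of their condition in the 4 classes. Shallower cells were left out, 8.24% to 26.5% of a library, but 492 of 853 acinar and 520 of 1122 endothelial cells of WT 1 and 456 of 917 acinar cells of WT 2. In endothelial cells 23.4% (exact Clopper-Pearson 95% interval 20.1 to 27.0%) of 602 cells of WT 1 and 53.4% (50.1 to 56.6%) of 937 cells of WT 2 had a Hspa1a UMI. In caerulein 1 and 2 this was 16.4% and 49.7%, and in i4F 1 to 3 it was 18.1%, 14.3% and 21.6%. In stellate cells the shares were 25.3% and 35.8% in WT, 9.48%, 9.65% and 21.0% in i4F and 4.56% and 19.5% in caerulein mice. Acinar cells held 1.43% to 7.31%. The intervals cover counting error only. No cell type here is known to lack these genes, so the share that free RNA gives was not measured.

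**Figure D3:**
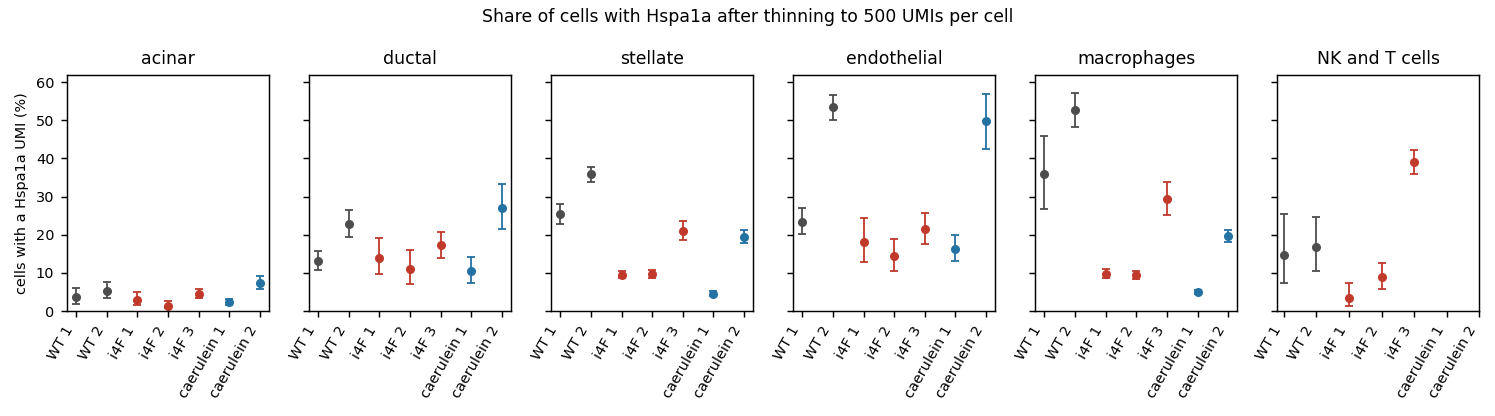
Share of cells (%) with at least 1 Hspa1a UMI after thinning to 500 UMIs per cell, per library, in 6 cell classes (grey WT, red i4F, blue caerulein), with exact 95% intervals. WT 2 and caerulein 2 lie above their group mates in all 4 non-immune classes, and NK and T cells of i4F 3 stand at 39.02% beside 3.45% and 8.84% in the other i4F mice.

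The spread over single cells differed between classes and libraries. Among cells with at least 1000 UMIs, in endothelial cells of WT 2 the median cell had 1.89 Hspa1a and Hspa1b UMIs per 1000 UMIs and the ninetieth percentile 10.2, whereas in NK and T cells of i4F 3 the median was 0 and the ninetieth percentile 13.6. Cells with a Hspa1a or Hspa1b UMI also held Dnajb1, Hsph1, Hspa8, Hsp90aa1 and Hspe1 more often in most libraries and classes at the same thinned depth. Hspb1 was not examined in this way. Over 25 pairs of library and acinar, ductal, stellate or endothelial class with at least 20 cells on each side, Dnajb1 was found in a larger share of cells with Hspa1a or Hspa1b than of cells without in 24 pairs (median 18.5% against 8.33%). Hsph1 was so in 21 (7.69% against 3.27%), Hspa8 in 23 (53.0% against 44.7%), Hsp90aa1 in 20 (34.6% against 26.4%) and Hspe1 in 17 (16.7% against 13.5%). Hspe1 went the other way in endothelial cells of every i4F and caerulein library. The median mitochondrial share of the cells was higher in cells with Hspa1a or Hspa1b in 17 of the 25 pairs, and in the 4 acinar pairs it was 0.219% to 0.856% against 0.107% to 0.370%. Its part in the co-detection was not tested, and these shares are a description.

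**Figure D4:**
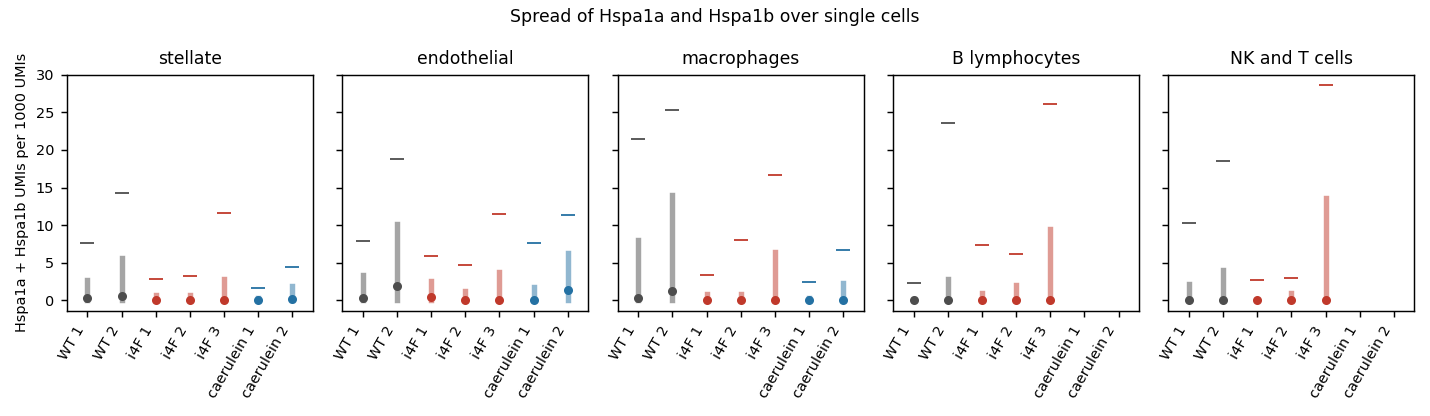
Hspa1a and Hspa1b UMIs per 1000 UMIs in single cells of at least 1000 UMIs, per library. Points are medians, bars run from the tenth to the ninetieth percentile and dashes mark the ninety-ninth. The bars are longest in endothelial cells and macrophages of WT 2 and in B, NK and T cells of i4F 3, where the median cell has 0.

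The immune clusters, in which these genes were picked out, are given as levels only. In the NK and T cell clusters Hspa1a had 679 and 1288 CPM in WT and 139, 482 and 3407 CPM in i4F mice, and Dnajb1 had 870 and 715 against 350, 440 and 786 CPM. In B lymphocytes Hspa1a had 92.6 and 727 CPM in WT and 787, 435 and 3178 CPM in i4F mice. For Hspa1a i4F 3 was highest in both cell types, and the other i4F mice lay below both WT mice in NK and T cells, whereas for Dnajb1 WT 1 was highest there. The conditions were clustered separately, so that clusters of one name need not hold like cells. In B lymphocytes 4 plasma cell markers summed to 12465 and 13859 CPM in WT but 666, 598 and 773 CPM in i4F mice. In NK and T cells 7 NK cell markers had 5381 and 2726 against 933, 535 and 901 CPM. The 8 T cell markers there had 3624 and 3826 against 3761, 3618 and 5110 CPM. The B lymphocytes of WT 1 were 47 cells with 20 Hspa1a UMIs. Macrophages_1 had 2937 and 3813 CPM of Hspa1a in WT, 244, 325 and 999 CPM in i4F and 151 and 629 CPM in caerulein mice. Macrophages_2 of WT mice had 1361 and 1866 CPM, and Macrophages_3 of i4F mice had 486, 714 and 1708 CPM, so that i4F 3 lay inside the range of one WT cluster and below the other.

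Other chaperones were read from lists with members of known function. In stellate cells, 7 of 8 subunits of TRiC, the cytosolic chaperonin that folds actin and tubulin, were higher in i4F than in WT mice, beside 11.98% of all stellate genes called higher. Tcp1 had a log2 fold change of 1.38 ± 0.36 (edgeR, adjusted p = 0.0408), Cct2 1.33 ± 0.31 (adjusted p = 0.0329) and Cct7 1.30 ± 0.29 (adjusted p = 0.0297). Cct7 stood at 184 and 176 CPM in WT and at 444, 489 and 260 CPM in i4F stellate cells, so that i4F 3 was the lowest of its group but above WT. Of the 9 mitochondrial chaperones 3 were higher (Hspd1, the chaperonin that Hspe1 caps, at 1.23 ± 0.32, Hspa9 at 0.98 ± 0.28, and Trap1 at 0.74 ± 0.17), and none was lower. The median log2 fold change of the 8 TRiC genes was 1.21 and that of the mitochondrial list 0.74, beside 0.02 for all genes tested and -0.57 for the 8 chaperones. These calls depended on the libraries in the fit. The 7 TRiC calls became 8 without i4F 3 (23.9% of all genes higher) and 4 without TMM, but 0 on leaving out any other single library, with the library series as a term, or with only the WT and i4F libraries, and calls over all stellate genes fell from 3046 to 16 with the series term. The TRiC median of i4F against WT stayed between 1.05 and 1.45 in every setting tried. The 3 mitochondrial calls became 7 without i4F 3 and 1 without TMM, but 0 on leaving out any other single library, with only the WT and i4F libraries or with the series term. For caerulein against WT no gene of either list passed, at stellate medians of 0.93 (TRiC) and 0.53 (mitochondrial). Without i4F 3, 8 of 8 TRiC and 5 of 9 mitochondrial genes were higher in caerulein mice, beside 19.3% of all stellate genes.

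Of the 27 other heat-shock response genes tested in stellate cells, Hspd1 was higher and Dnajb4, Hspa4l and Hspa2 were lower in i4F mice, at -1.45 ± 0.29, -0.99 ± 0.26 and -0.91 ± 0.24, which is 3.70% higher and 11.1% lower beside 11.98% and 8.58% of all stellate genes. In caerulein mice Dnajb4 (-1.35 ± 0.32) and Hspa2 (-1.26 ± 0.27) were lower, and Serpinh1, the collagen chaperone, was higher (1.40 ± 0.34), with 2319 and 1928 CPM in WT and 4926 and 5138 CPM in caerulein mice. Of the 15 chaperones of the endoplasmic reticulum, P4hb was higher in i4F stellate cells (1.29 ± 0.29), and P4hb, Pdia6 and Pdia3, which form disulphide bonds, were higher in caerulein stellate cells (1.81 ± 0.31, 1.32 ± 0.30 and 1.25 ± 0.31), beside 9.99% of all genes higher and 7.10% lower. For i4F the reticulum list, with 6.67% of its genes higher, was below the share of all genes. Without i4F 3 the other heat-shock response genes had 6 higher and 8 lower of 28, and the reticulum list 2 higher and 1 lower of 15, in i4F mice, beside 23.9% higher and 23.8% lower of all stellate genes. On leaving out any other single library, none of these i4F calls was left, but calls over all stellate genes also fell, from 3046 to between 11 and 369. The caerulein calls of both lists fell to 0 without WT 1, WT 2, caerulein 1 or caerulein 2, where calls over all stellate genes fell from 2532 to between 8 and 47. Without i4F 2, 1 reticulum gene was left, beside 1211 calls. Without i4F 3 they became 6 higher and 5 lower heat-shock response genes and 6 higher reticulum genes, beside 19.3% higher and 20.4% lower of all stellate genes. With the series term neither list had a call, but only 16 (i4F) and 7 (caerulein) of 14818 stellate genes passed. With all 7 libraries in the edgeR fit, the heat-shock factor list had no gene past the threshold in any class. In acinar, ductal and endothelial cells no gene of any list passed in that fit. Without i4F 3, 1 of 5 heat-shock factor genes was lower in i4F stellate cells, beside 23.8% of all genes. In caerulein stellate cells 1 was then higher and 1 lower, beside 19.3% and 20.4%. Both comparisons share the WT mice.

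**Figure D5:**
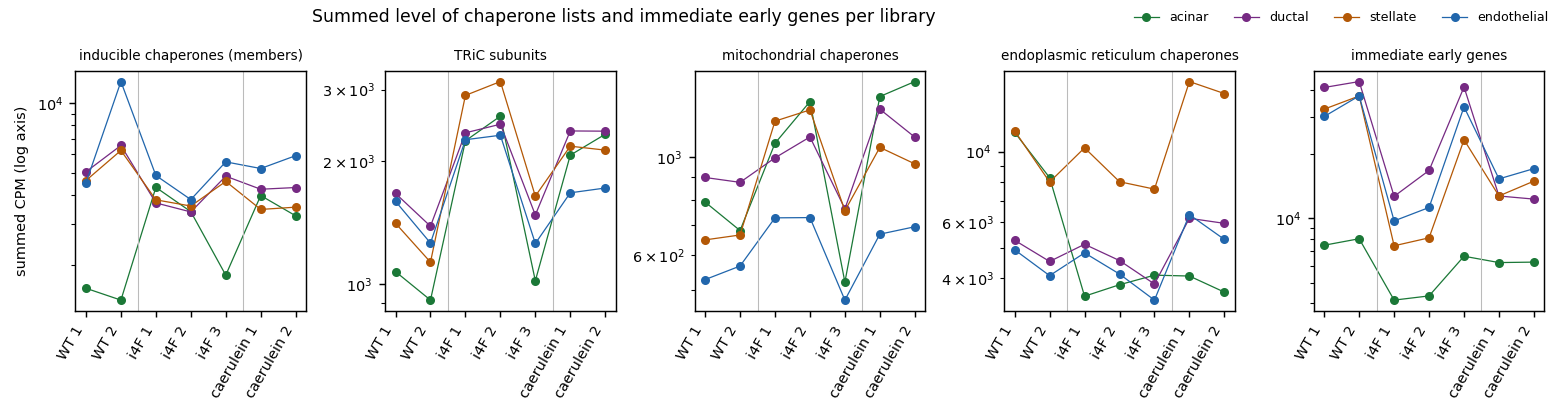
Summed CPM (log axis) of 5 gene lists in the 7 libraries, one point per library and cell class. TRiC subunits sum to 2904, 3140 and 1643 CPM in stellate cells of i4F 1 to 3 and 2179 and 2131 CPM in caerulein mice, against 1409 and 1131 CPM in WT. Immediate early genes fall from 32500 and 37453 CPM in WT stellate cells to 7433 and 8100 CPM in i4F 1 and 2. In stellate cells of i4F 3 they stand at 23346 CPM, and in caerulein mice at 12731 and 14941 CPM.

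Immediate early genes, which are transcribed within minutes of a stimulus, differed between libraries in part like the chaperones. The 19 genes summed to 31382 and 34106 CPM over all cells in WT, 7775, 8118 and 18426 CPM in i4F and 10762 and 11922 CPM in caerulein mice. Fos alone had 5586 and 5114 CPM in WT, 627, 628 and 1913 CPM in i4F and 1290 and 1589 CPM in caerulein mice. i4F 3 was again above i4F 1 and 2, but WT 1 and WT 2 lay close together, unlike for Hspa1a. In stellate cells 1 of the 19 genes passed the test in each comparison, and it was higher: Ier3 with a log2 fold change of 1.81 ± 0.33 in i4F and 2.00 ± 0.35 in caerulein mice. This is 5.26% of the list, beside 11.98% and 9.99% of all stellate genes higher. Neither call was left with the series term or without WT 1, WT 2, caerulein 1 or caerulein 2, and the i4F call was also lost without i4F 1 or i4F 2 and with only the WT and i4F libraries. The list's median was -1.10 in i4F and -1.05 in caerulein mice. Without i4F 3, 17 of the 19 genes were lower in i4F mice, beside 23.8% of all genes, and 12 in caerulein mice, beside 20.4%. With only the WT and caerulein libraries, 11 of the 19 were lower, beside 19.75% of all genes. Whether handling of the tissue bears on these levels was not tested.

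Over the 28 sums of library and class, with each class centred on its own mean of log2(CPM + 1), Hspa1a ran most closely with Hspa1b (Pearson r = 0.93) and Dnajb1 (r = 0.80), then Hsph1 (r = 0.62), Hsp90aa1 (r = 0.29) and Hspa8 (r = 0.11), and was inverse to Hspb1 (r = -0.20) and Hspe1 (r = -0.27). The 5 genes outside the list most like it among 5988 genes were Ctsf, Cyhr1, Gaa, Aplp2 and Stim1 (r = 0.77, 0.76, 0.76, 0.75 and 0.73). The points share libraries, so that they are no independent samples.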

How the data were processed

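Pancreas cells of 2 WT, 3 i4F and 2 caerulein mice were analysed, 1 library per mouse. Per the labels and methods, the authors aligned 10x 3′ reads to GRCm38 (mm10) with Cell Ranger (version not given in the sources used here), removed cells with few genes or a high mitochondrial percent, corrected ambient RNA with SoupX, and clustered and named cells in Seurat. The deposited values are whole-number UMI counts that were not normalized, and it is not stated if SoupX had already been applied to them. The authors also deposited the mitochondrial percent of each cell and the cluster names, which were used as given. The files held cells with at least 150 genes and at most 4.997% mitochondrial UMIs.

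Counts were summed per library over clusters named acinar, ductal, stellate or endothelial (at least 20 cells). They were tested with edgeR 4.0.16 (quasi-likelihood test, TMM, filterByExpr, R 4.3.3), all 7 libraries in 1 fit with the group as the only term, two-sided, Benjamini-Hochberg adjusted over all genes of a class, with a threshold of 0.05. DESeq2 1.42.0 was an alternative. The script was tested on simulated data. CPM are UMIs of a gene per 1000000 UMIs of the class. Where a table lists no such gene, 0 was taken. Shares of cells used counts thinned to 500 UMIs per cell. No doublet caller was run.

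Members, lists and markers were chosen with earlier results of these data known. All 8 members are named. Each list contributes at most its 3 strongest genes that passed in either direction, and the 5 genes most like Hspa1a were taken from those with a mean of at least 20 CPM. Further genes (Scand1, H2afj, Hsp25-ps1) were chosen after their values were seen. Replicate numbers were checked for pairing: deviations of same-numbered libraries correlated at -0.142 (ductal) to -0.031 (stellate) over the classes for i4F and WT and at -0.587 (stellate) to -0.288 (endothelial) for caerulein and WT, and nothing in the labels pairs the mice.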

Additional observations from a re-analysis of the deposited data

Results flagged for a closer look

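The same contrast gave opposite directions in different cell classes for 3 genes. The CPM of every library of the group lay on one side of WT in each class named. By share of thinned acinar cells, however, the i4F mice overlapped WT for Dnajb1 and Hsp90aa1, whereas caerulein mice did not for Hsp90aa1. The differences between classes were not tested. For i4F against WT, Dnajb1 had a log2 fold change of 1.19 in acinar, -1.43 in stellate and -1.08 in endothelial cells. Hsp90aa1 had 1.85 in acinar, -0.71 in ductal, -0.17 in stellate and -0.45 in endothelial cells. For caerulein against WT, Hsp90aa1 had 0.76 in acinar, -0.87 in ductal, -0.30 in stellate and -0.67 in endothelial cells, and Hspa8 had 0.78 in acinar, -0.25 in stellate and -0.26 in endothelial cells. With the library series as a term every one of these values kept its sign, but several changed in size. That term sets i4F mice against WT 1 alone and caerulein mice against WT 2 alone. The values were picked because every library of the group lay on one side of both WT libraries. The kept sign was thus nearly fixed by the choice and says nothing more. For i4F, Dnajb1 had 1.23, -1.08 and -0.60, and Hsp90aa1 had 1.59, -0.65, -0.043 and -0.22, in the same order of classes. For caerulein, Hsp90aa1 had 1.07, -0.92, -0.42 and -0.87, and Hspa8 had 1.43, -0.28 and -0.34. None of these values passed the adjusted threshold on its own. In the acinar class the summed acinar markers ranged from 3040 to 84984 CPM over the libraries, and their part in these values was not tested. The endothelial class differed between conditions in lymphatic and macrophage markers, whose part was not tested either.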

How the results depend on the processing

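With 2 or 3 mice a group, the count of chaperone tests passed depended on the model. For i4F against WT, 0 of 32 passed, against 2 with DESeq2 (10.1% of all genes), 1 without TMM (7.29%), 12 without the filter on low counts (9.18%) and 8 with the replicate block (28.1%). Leaving out 1 library at a time gave 0 to 10, and 10 was without i4F 3 (33.0% of all genes). For caerulein against WT, 0 of 32 passed, against 2 with DESeq2 (10.98%), 6 without the filter (9.62%), 4 with only the 2 groups compared (26.3%) and 5 with the replicate block (22.9%), and leaving out 1 library gave 0 to 4, with 4 without i4F 3 (27.9%). Without the filter, the shares of all genes are over 99579 tests, against 45724 with it, and the genes added have low counts. The 8 members pass the filter in every class, so that these shares are no like background for them. The replicate block shares only a number. A crossed replicate block, chosen after seeing the data because same-numbered caerulein and WT libraries deviated in opposite directions, gave 15 (38.4%). The other planned settings gave 0. The cause was not tested.

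Of 51 cluster comparisons of Hspa1a between mice of one group, 48 had the order given, and 46 to 49 under 3 alternatives. They leave out i4F 1 against i4F 2, where i4F 1 was higher in 9 of 13 clusters. Of 16 comparisons of shares between the same pairs of mice, 16 had the order given, 15 at 1000 UMIs and 10 without thinning. There were 592 alternative values of 34 single-gene results. Of these 411 kept direction and side of the threshold, 131 lost the threshold, 50 gained it and 0 reversed. The 34 were members with an unadjusted edgeR p under 0.05, Hspa1a in stellate cells, and the strongest list genes past the adjusted threshold. Results picked for effects that are large beside their error could hardly reverse, so that the 0 says little.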
